A study of Mus musculus with 14 samples.

Results

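Amyloid-beta, the peptide that forms the plaques of Alzheimer's disease, is removed from the brain by proteases that cut it, by secreted proteins that bind it and by receptors that carry it away. The expression of 10 genes of these routes was examined, of 43346 genes in the count table: the proteases Ide, Mme, Ece1, Ece2, Plat and Mmp2, the secreted binding proteins and protease inhibitors Clu, Cst3 and A2m, and the endocytic receptor Lrp1. The genes were chosen by name, from what their proteins are known to do, but with earlier results of these data known. Each matched 1 row of the table. All 10 passed the filter on low counts in each comparison, with 195 to 545 counts per mouse for Mmp2, the gene with the fewest, and 76337 to 156543 for Cst3, the gene with the most.

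RNA was sequenced from a cross-section of the brain with hippocampal and cortical tissue of 14 female mice aged 23 months, each the source of 1 library and labelled with the strain C57BL/6;SJL-Tg. NTG mice (numbers 7 to 10, n = 4) are labelled wild type and carried no transgene. APP/PS1 mice (numbers 16 to 20, n = 5) are labelled APP/PS1 +/+ and carried mutant human APP (K670N and M671L) and PS1. Both of these groups drank water with 0.1% PEG, the vehicle, although the labels call them non-treated. The third group, APP/PS1+CP2 (numbers 21 to 25, n = 5), had the same transgenes and received CP2, a tricyclic pyrone that partially inhibits mitochondrial complex I, at 25 mg/kg/day in that water from 9 months of age. The promoters that drive the transgenes are not given in the sources used here, and NTG mice given CP2 were not analysed here.

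Total counts per mouse ranged from 70548781 to 106235625, so that 1 count was worth 0.00941 to 0.0142 CPM, the unit of counts scaled to a common library size. The mouse row of App did not mark the genotype, since it was at 1334 to 1489 CPM in NTG and 1363 to 1497 CPM in APP/PS1 mice. APP/PS1 mouse 16 stood apart in tissue markers. The summed level of 11 striatum genes was 2695 CPM in this mouse and 215 to 410 CPM in the other 13, that of 9 thalamus genes was 222 CPM against 454 to 772 CPM, and that of 8 dentate gyrus genes was 124 CPM against 153 to 232 CPM. Markers of neurons (6441 to 7225 CPM in NTG, 5985 to 7249 CPM in APP/PS1) and of the dentate gyrus were present in every mouse. Results that rest on mouse 16 are given with and without it.

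The proteases work in different places. Neprilysin (Mme) and the endothelin-converting enzymes (Ece1, Ece2) are membrane-bound zinc peptidases of 1 family, insulin-degrading enzyme (Ide) is a largely cytosolic zinc peptidase that also degrades insulin, gelatinase A (Mmp2) is a secreted matrix metalloproteinase, and tissue-type plasminogen activator (Plat) is a serine protease that turns plasminogen into plasmin. Clusterin (Clu), an apolipoprotein and extracellular chaperone made in the brain mainly by astrocytes, cystatin C (Cst3), an inhibitor of cysteine cathepsins, and alpha-2-macroglobulin (A2m), which traps proteases, all bind amyloid-beta outside the cell. LRP1 takes up apolipoprotein E, alpha-2-macroglobulin and amyloid-beta bound to them.

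The coding bases around the sites by which 7 of these proteins act show how the families differ, and are printed for that reason, from GENCODE vM21 transcripts (GRCm38), 5′ to 3′ on the strand of the gene. Capitals mark the codons of the site and lower case the 15 bases on each side. In the neprilysin family the site holds the zinc-binding pair of histidines with the catalytic glutamate next to the first of them, in Ide the order is inverted, and in Mmp2 the motif is longer and ends in a further histidine. In Cst3 the capitals mark the loop that enters the cleft of cathepsins, and in A2m the thioester that binds a trapped protease. Each motif occurred 1 time in the translated transcript.
Mme, chr3:63362006-63362050, plus strand, codons 584 to 588: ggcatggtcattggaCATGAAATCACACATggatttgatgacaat
Ece1, chr4:137957157-137957201, plus strand, codons 590 to 594: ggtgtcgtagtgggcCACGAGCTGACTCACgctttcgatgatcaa
Ece2, chr16:20643875-20643919, plus strand, codons 600 to 604: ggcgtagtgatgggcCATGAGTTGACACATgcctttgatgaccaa
Ide, chr19:37329121-37329165, minus strand: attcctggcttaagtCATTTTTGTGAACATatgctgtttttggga
Mmp2, chr8:92839264-92839326, plus strand, codons 403 to 413: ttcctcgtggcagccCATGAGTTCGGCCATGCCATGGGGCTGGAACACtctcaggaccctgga
Cst3, in 2 exons of chr2:148872904-148875170, minus strand, codons 75 to 79: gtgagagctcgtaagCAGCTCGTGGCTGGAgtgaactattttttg
A2m, chr6:121668087-121668131, plus strand, codons 971 to 975: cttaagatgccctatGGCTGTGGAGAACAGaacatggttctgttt
Of the 45 bases shown, Ece1 and Ece2 had 34 in common, Mme and Ece2 33, and Mme and Ece1 26. The Ide transcript lacks its start in this annotation, so its codons are not numbered.

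Compared per length, in the authors' RPKM (reads per kilobase of gene model, scaled to the depth of the library), the binding proteins Cst3 and Clu and the receptor Lrp1 were the most abundant transcripts of the 10, and the proteases and A2m lay below them. The median over the 14 mice was 795 RPKM for Cst3 (range 617 to 1083), 179 RPKM for Clu (147 to 245) and 32.3 RPKM for Lrp1 (29.4 to 36.1). These 3 genes did not overlap each other or any other of the 10 in any mouse. Plat followed with a median of 10.8 RPKM, then Ece1 with 7.48, Ide with 6.91, Ece2 with 5.29, A2m with 3.43, Mmp2 with 1.19 and Mme with 1.11 RPKM. Plat lay above Ece1, and Ide above Ece2, in every mouse, whereas the ranges of Ece1 and Ide overlapped, as did those of Ece2 and A2m, of A2m and Mmp2, and of Mmp2 and Mme. Within single mice the order was firmer, since A2m lay above Mmp2 in 14 of 14 mice, and Ece1 above Ide and Ece2 above A2m in 13 of 14, with mouse 17 as the exception in both. Mmp2 and Mme changed places from mouse to mouse, with Mmp2 higher in 9 of 14.

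**Figure D1:**
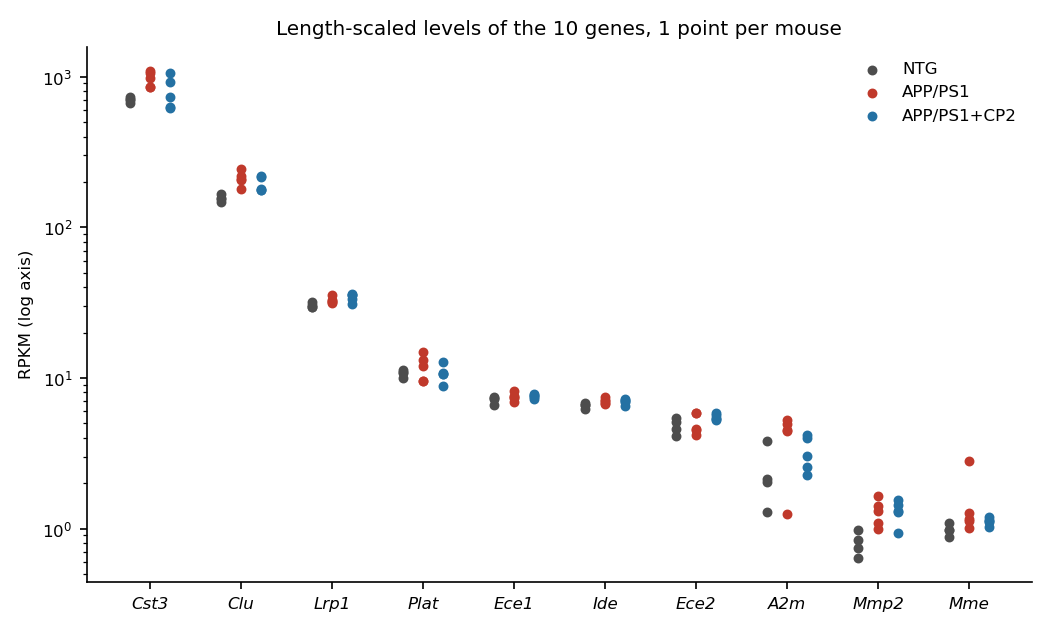
Length-scaled level (RPKM as deposited, log axis) of the 10 genes in order of their median, with 1 point per mouse coloured by group. Cst3, Clu and Lrp1 lie above the other genes, at medians of 795, 179 and 32.3 RPKM, and the lowest medians are 1.19 RPKM for Mmp2 and 1.11 RPKM for Mme.

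The first comparison, APP/PS1 against NTG mice on vehicle, asks what the transgenes change. Clu and Cst3 were higher in APP/PS1 mice, by 29.9% and 31.0%, and the other 8 genes did not pass the test. Among all 16417 genes tested, 932 had an adjusted p under 0.05 (5.68%) and 712 of them were higher (4.34%), and of the 10 genes 2 did, both higher. The CPM values of NTG and APP/PS1 mice did not overlap for 10.04% of all genes tested and for the same 2 of the 10. An unadjusted p under 0.05 was found for 18.7% of all genes and for 3 of the 10, the third being Mmp2. The median log2 fold change was 0.22 over the 10 genes and -0.0042 over all genes tested. The tests are edgeR's quasi-likelihood test with Benjamini-Hochberg adjustment over all genes tested, as everywhere below.

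Clu (ENSMUSG00000022037, chr14:65968483-65981548 of mm10) was at 623, 697, 674 and 693 CPM in NTG mice 7 to 10 and at 744, 867, 827, 1006 and 893 CPM in APP/PS1 mice 16 to 20. Every APP/PS1 mouse lay above every NTG mouse, the closest being mouse 16 over mouse 8. The log2 fold change was 0.38 (SE 0.09, edgeR adjusted p = 0.0332, higher in 5 of 5 mice than in any NTG mouse). The direction held in every fit without 1 mouse, from 0.31 without mouse 19 to 0.43 without mouse 16. The adjusted p then stayed under 0.05 in 2 of 9 fits, without mouse 16 or 19, and reached 0.0960 without NTG mouse 9, the highest of the other 7.

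Cst3 (ENSMUSG00000027447, chr2:148871722-148875692) was at 1101, 1207, 1083 and 1078 CPM in NTG and at 1307, 1539, 1444, 1642 and 1347 CPM in APP/PS1 mice. Again all 5 APP/PS1 mice lay above all 4 NTG mice, with a log2 fold change of 0.39 (SE 0.08, edgeR adjusted p = 0.0190). The call was lost in 2 of 9 fits with a mouse left out, without NTG mouse 7 (edgeR adjusted p = 0.0507) or NTG mouse 9 (edgeR adjusted p = 0.0722), and in the fit with all 3 groups together (edgeR adjusted p = 0.104), in which the log2 fold change was also 0.39.

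Beside these increases, markers of glia differed between the same groups. The summed level of 8 reactive astrocyte genes (Gfap, Vim, Serpina3n and others) was 479 to 739 CPM in NTG and 1394 to 3390 CPM in APP/PS1 mice, and 7 of 7 tested were higher. That of 10 microglia genes was 488 to 511 CPM in NTG and 945 to 1459 CPM in APP/PS1 mice, with 10 of 10 higher, and that of 11 genes of plaque-associated microglia was 151 to 197 CPM and 309 to 474 CPM, with 9 of 11 higher. The general astrocyte genes summed to 5445 to 5882 CPM in NTG and 4686 to 5259 CPM in APP/PS1 mice, with 1 of 10 lower and a median log2 fold change of -0.035. Of all genes tested 4.34% were higher and 5.68% were called in either direction. The markers were chosen with earlier results of these data known, so their counts are no test of these cells. No gene of these lists was at 0 in every mouse. The part of these cells in the levels of Clu and Cst3 was not tested, and in bulk tissue more cells of a type and more RNA per cell cannot be told apart.

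Mmp2 (ENSMUSG00000031740, chr8:92827328-92853417) was at 2.79, 3.84, 2.46 and 3.09 CPM in NTG and at 3.65, 4.58, 5.03, 6.01 and 4.10 CPM in APP/PS1 mice. Its groups overlapped by 1 pair, NTG mouse 8 lying above APP/PS1 mouse 16. The log2 fold change of 0.63 (SE 0.18, 95% interval 0.23 to 1.02) missed the threshold (edgeR adjusted p = 0.0731). It passed with DESeq2 (adjusted p = 0.0107), with limma-voom and quality weights (adjusted p = 0.0244) and with all 3 groups in one edgeR fit (adjusted p = 0.0380). With single mice left out it passed in 1 of 9 fits, without mouse 16 (log2 fold change 0.71, edgeR adjusted p = 0.0259). Summed markers of pericytes and smooth muscle were 142 to 170 CPM in NTG and 185 to 295 CPM in APP/PS1 mice, with a median log2 fold change of 0.51 over 9 genes. Of these, 0 passed with edgeR (7 higher at an unadjusted p under 0.05), 2 with limma-voom and 6 with DESeq2. Of all 16417 genes tested, edgeR called 932, limma-voom 1563 and DESeq2 1667. Summed markers of meninges and fibroblasts were 785 to 1153 CPM in NTG and 666 to 1356 CPM in APP/PS1 mice. Their median log2 fold change was 0.048, with 0 of 9 called by edgeR. The part of either group of cells in the level of Mmp2 was not tested.

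A2m (ENSMUSG00000030111, chr6:121636173-121679237) was the most variable of the 10 in NTG mice, at 21.9998, 12.3, 7.70 and 12.1 CPM. In APP/PS1 mice it was at 7.03, 26.6, 24.5, 29.6 and 25.9 CPM. Mouse 16 was thus the lowest of all 9 mice, and the other 4 APP/PS1 mice lay above every NTG mouse. With all mice the log2 fold change was 0.76 (SE 0.40, edgeR adjusted p = 0.362), and without mouse 16 it was 0.99 (SE 0.26, edgeR adjusted p = 0.0407). Pzp, which encodes a relative of alpha-2-macroglobulin, was at 0.219 to 1.04 CPM over the 14 mice and did not pass the filter on low counts.

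Mme (ENSMUSG00000027820, chr3:63241537-63386030) differed in 1 mouse. It was at 13.9, 13.1, 14.5 and 15.2 CPM in NTG and at 39.0, 15.05, 16.99, 16.1 and 14.6 CPM in APP/PS1 mice. Mouse 16, with the high striatum markers, was at more than all other mice, and the other 4 APP/PS1 mice overlapped with NTG mice. The log2 fold change was 0.53 with mouse 16 (SE 0.28, edgeR adjusted p = 0.359) and 0.16 without it. The part of the striatum markers in the level of mouse 16 was not tested.

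The remaining 5 genes had log2 fold changes near 0 with intervals that bound how large a difference could be. Ide was the steadiest, at 47.2, 46.9, 48.9 and 48.1 CPM in NTG and 47.5, 50.1, 48.7, 48.9 and 48.9 CPM in APP/PS1 mice. Its groups overlapped, and its change was 2.80% (95% interval -2.85 to 8.79%). The change was 0.776% for Ece1 (95% interval -8.11 to 10.5%), 3.68% for Lrp1 (-5.54 to 13.8%), -0.381% for Ece2 (-16.2 to 18.5%) and 4.84% for Plat (-11.9 to 24.7%). Plat was at 35.5, 35.6, 32.2 and 33.0 CPM in NTG, at 29.3, 43.1, 38.8, 36.5 and 29.9 CPM in APP/PS1 and at 32.2, 38.0, 34.2, 32.3 and 26.9 CPM in CP2-treated mice. APP/PS1 mice lay on both sides of the narrow NTG range, and the 3 groups overlapped. Plat and Ece2 varied more among APP/PS1 mice (coefficient of variation 16.7% and 15.2%) than among NTG mice (5.10% and 8.73%), and that difference in spread was not tested.

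**Figure D2:**
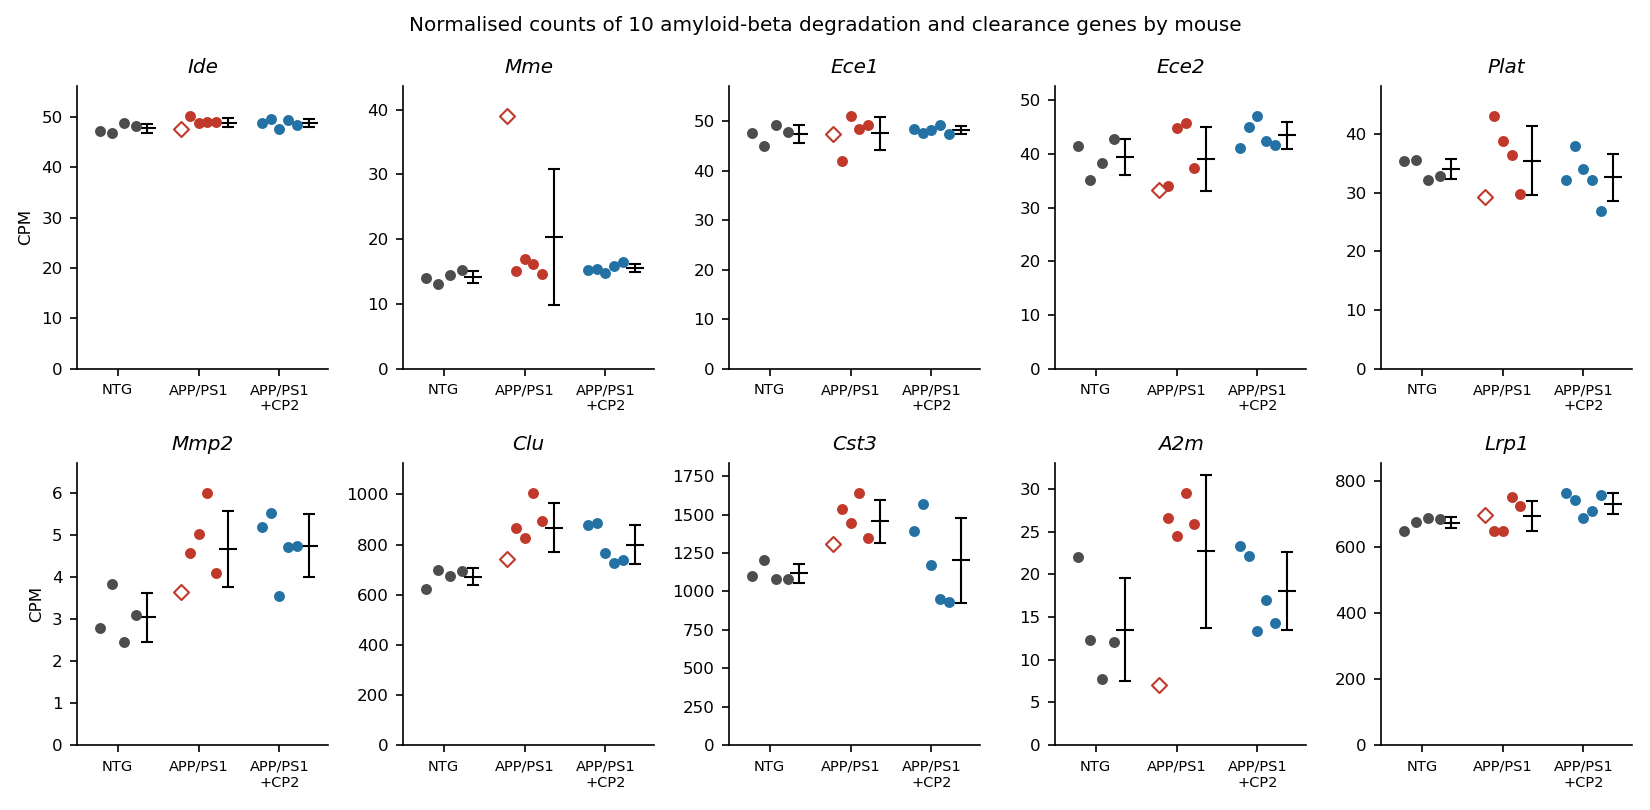
Normalised counts (CPM, from 0) of the 10 genes in each mouse, with the mean and SD of each group at its right. The open diamond is APP/PS1 mouse 16. For Clu and Cst3 every APP/PS1 mouse lies above every NTG mouse, for Mme mouse 16 stands alone at 39.0 CPM, and for A2m the same mouse is the lowest at 7.03 CPM.

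The second comparison, APP/PS1+CP2 against APP/PS1 mice, asks what CP2 changed in the presence of the transgenes. None of the 10 genes was called, at an adjusted p under 0.05 in edgeR (0 genes), DESeq2 (0) or limma-voom (0), or at an unadjusted p under 0.05 in edgeR (0). Among all 16407 genes tested 1 was called (0.00609%), 6.55% had an unadjusted p under 0.05 and 1.14% did not overlap between the groups, against 0 of the 10 genes in each case. This comparison shares the 5 APP/PS1 mice with the first, so an APP/PS1 value that is high by chance enters the 2 fold changes with opposite signs. The median log2 fold change was -0.061 over the 10 genes and -0.0060 over all genes tested.

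Among the 10 genes Cst3 came closest to a difference. In APP/PS1+CP2 mice it was at 1392, 1569, 1173, 949 and 933 CPM for mice 21 to 25. Mice 24 and 25 lay below every NTG mouse, mice 21 and 22 lay among the APP/PS1 mice, and mouse 23 lay within the range of the NTG mice. The log2 fold change against APP/PS1 mice was -0.28 (SE 0.14, 95% interval -0.59 to 0.03, edgeR adjusted p = 0.749). Leaving out single mice gave values between -0.39 (mouse 22 left out) and -0.20 (mouse 24 left out), with an edgeR adjusted p of 0.526 or more.

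Clu and A2m showed the same split of the CP2-treated mice. Clu was at 879.6, 886, 764, 726 and 739 CPM in mice 21 to 25, and A2m at 23.4, 22.2, 13.4, 16.998 and 14.3 CPM. In all 3 genes mice 21 and 22 were higher than mice 23 to 25. Their summed reactive astrocyte genes were at 2644 and 2764 CPM, against 1712, 1739.6 and 1626 CPM in mice 23 to 25, and their microglia genes at 1156 and 1235 CPM, against 993, 870 and 825 CPM. General astrocyte genes (5140 and 5107 CPM against 4994, 4717 and 4679 CPM) and oligodendrocyte genes (6228 and 6207 CPM against 5666, 5773 and 5502 CPM) split the same way. Neuron genes were lower in mice 21 and 22, at 6527 and 6307 CPM, against 7163, 7102 and 6694 CPM. Genes of plaque-associated microglia were at 403 and 408 CPM, against 393, 295 and 270 CPM, with mouse 23 near mice 21 and 22. The part of these cells was not tested. Against APP/PS1 mice the log2 fold change was -0.12 for Clu (95% interval -0.31 to 0.08, edgeR adjusted p = 0.797) and -0.33 for A2m (95% interval -1.03 to 0.37, edgeR adjusted p = 0.831). With single mice left out the value for Clu ranged from -0.17 without mouse 16 to -0.057 without mouse 19, and that for A2m reached -0.21 without mouse 19. Without mouse 16 the value for A2m was -0.56 (SE 0.16, edgeR adjusted p = 0.410).

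The peptidases showed no difference that passed the test. Mmp2 was at 5.21, 5.52, 3.56, 4.71 and 4.76 CPM in CP2-treated mice, within the range of the APP/PS1 mice except for mouse 23, which was slightly lower, and its log2 fold change was 0.025 (95% interval -0.31 to 0.36). Mme was at 15.2, 15.3, 14.8, 15.8 and 16.4 CPM, which gave a log2 fold change of -0.39 with mouse 16 (95% interval -0.94 to 0.16) and -0.013 without it. The change was -0.241% for Ide (95% interval -4.98 to 4.73%), 1.28% for Ece1 (-6.08 to 9.23%), 11.2% for Ece2 (-3.39 to 28.1%) and -7.89% for Plat (-22.9 to 9.99%). For the receptor Lrp1 it was 5.38% (-3.51 to 15.1%).

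**Figure D3:**
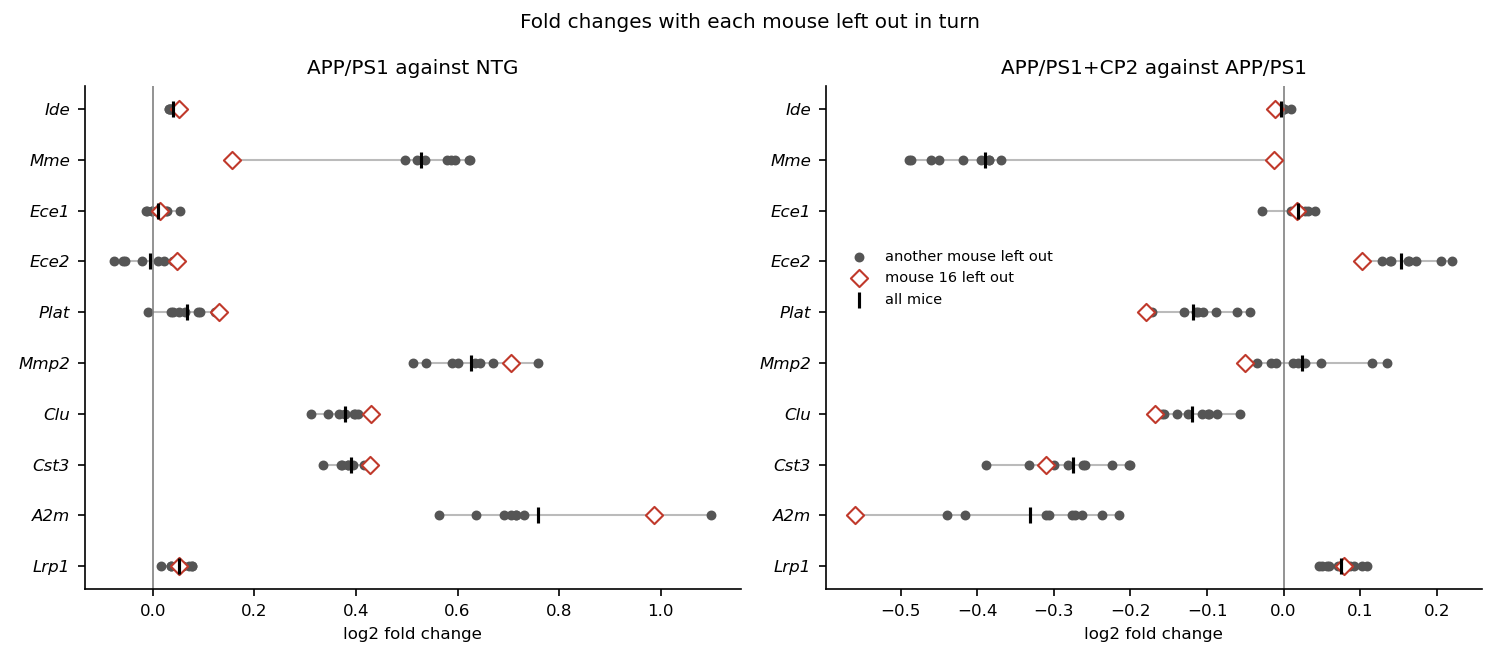
Log2 fold changes of the 10 genes in the first 2 comparisons with all mice (black bars) and without single mice (grey points, with mouse 16 left out as an open diamond). For Mme the value moved from 0.53 to 0.16 in APP/PS1 against NTG mice and from -0.39 to -0.013 in APP/PS1+CP2 against APP/PS1 mice when mouse 16 was left out, whereas the values of Clu stayed between 0.31 and 0.43 and those of Cst3 between 0.34 and 0.43 in the first comparison.

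The third comparison, APP/PS1+CP2 against NTG mice, asks what difference from NTG mice was left under CP2, and it shares its NTG mice with the first and its CP2-treated mice with the second. Mmp2 was higher, by 57.6%, and no other gene of the 10 passed the test. Of 16416 genes tested 989 were called (6.02%), 749 of them higher (4.56%), and of the 10 genes 1, higher. An unadjusted p under 0.05 was found for 20.2% of all genes and for 5 of the 10, and the values did not overlap for 9.61% of all genes and for 1 of the 10. The median log2 fold change was 0.14 over the 10 genes and -0.0015 over all genes tested.

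For Mmp2 the log2 fold change was 0.66 (SE 0.16, edgeR adjusted p = 0.0351). Mouse 23, at 3.56 CPM, lay below NTG mouse 8, at 3.84 CPM, and the other 4 CP2-treated mice lay above all NTG mice. The direction held in all 9 fits with a mouse left out, from 0.57 without NTG mouse 9 to 0.79 without NTG mouse 8. The call was lost in 7 of them, without each mouse other than NTG mouse 8 and mouse 23, with an adjusted p of up to 0.102, and in the fit with a covariate for ribosomal RNA content (edgeR adjusted p = 0.0714). Summed pericyte and smooth muscle markers were 240, 225, 225, 275 and 248 CPM in mice 21 to 25. Of these markers 6 of 9 were higher than in NTG mice by edgeR, where 4.56% of all genes tested were. Mouse 22, with the highest Mmp2 of this group at 5.52 CPM, had the lowest of these sums. Summed markers of meninges and fibroblasts were 978, 1275, 822, 929 and 908 CPM in the same mice. Their median log2 fold change from NTG mice was 0.031, with 0 of 9 called. The part of either group of cells was not tested.

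Clu was the gene whose groups did not overlap here. All 5 CP2-treated mice, the lowest at 726 CPM, lay above the highest NTG mouse at 697 CPM. Its log2 fold change of 0.26 (SE 0.07) missed the threshold with edgeR (adjusted p = 0.0617) and passed it with 2 of 8 other settings, DESeq2 and limma-voom. For Cst3 it was 0.12 (95% interval -0.20 to 0.43), and without mouse 22 it was 0.0043. For A2m it was 0.43 (95% interval -0.17 to 1.03), with values from 0.23 without NTG mouse 9 to 0.77 without NTG mouse 7, and 0.73 with limma-voom, none of them called.

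The other 3 genes with an unadjusted p under 0.05 were Lrp1, Ece2 and Mme, all higher by small amounts. Lrp1 was at 648, 674, 686 and 683 CPM in NTG, at 698, 648, 649, 749.7 and 723 CPM in APP/PS1 and at 764, 741, 686, 708 and 756 CPM in CP2-treated mice. Mouse 23 overlapped with NTG mice and the other 4 lay above them. The change from NTG was 9.59% (95% interval 1.81 to 17.96%, edgeR adjusted p = 0.151).

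Ece2 was at 41.5, 35.1, 38.3 and 42.8 CPM in NTG, at 33.2, 34.1, 44.9, 45.7 and 37.3 CPM in APP/PS1 and at 41.2, 45.0, 47.0, 42.4 and 41.6 CPM in CP2-treated mice. The CP2-treated mice overlapped with both other groups, and the change from NTG was 11.1% (95% interval 0.947 to 22.2%, edgeR adjusted p = 0.201). In the table its locus begins at chr16:20611593 and covers a region that GENCODE vM21 assigns in part to a neighbouring gene, Eef1akmt4, which has no row of its own, so that reads of both cannot be told apart. Mme was higher than in NTG mice by 10.5% (95% interval 0.760 to 21.3%, edgeR adjusted p = 0.209).

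**Figure D4:**
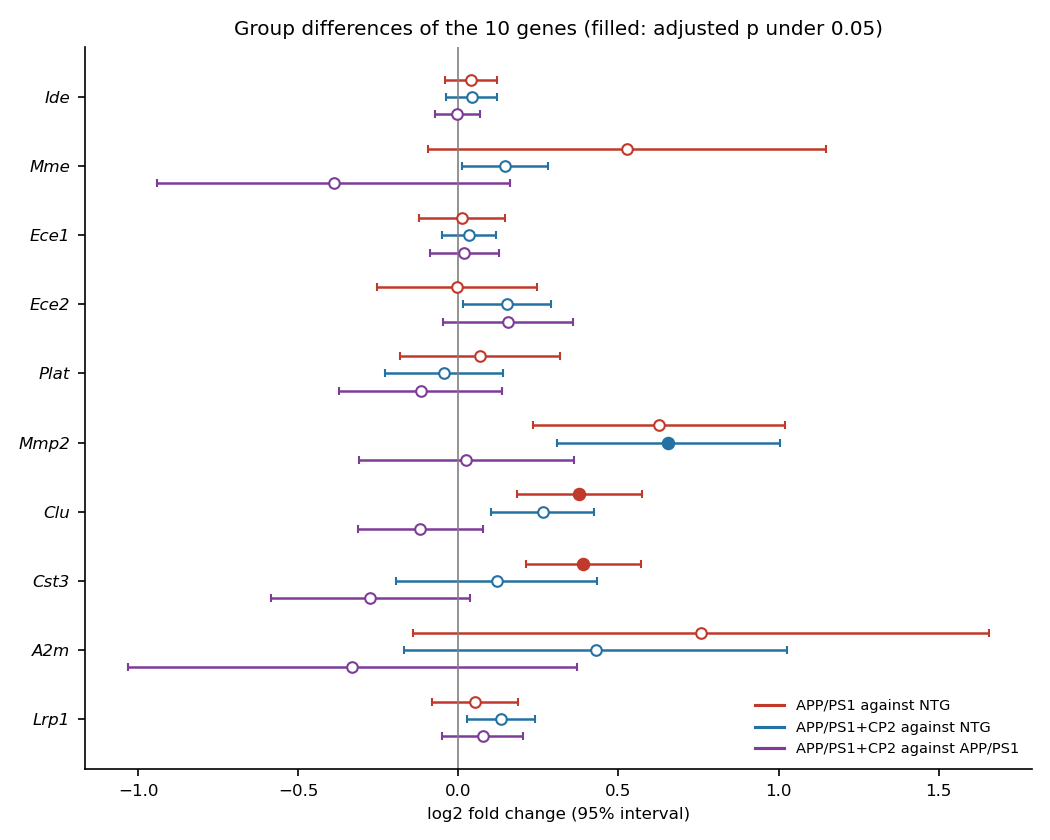
Log2 fold changes of the 10 genes with 95% intervals in the 3 comparisons, with filled points where the edgeR adjusted p was under 0.05. The filled points are Clu at 0.38 and Cst3 at 0.39 in APP/PS1 against NTG mice and Mmp2 at 0.66 in APP/PS1+CP2 against NTG mice, and the widest interval is that of A2m, from -0.14 to 1.66.

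The 10 genes also differed in how much they varied between mice of 1 group. The coefficient of variation of Ide was 1.88% in NTG, 1.88% in APP/PS1 and 1.63% in CP2-treated mice, where the median gene had 7.68%, 9.24% and 7.27%. Only 2.42%, 0.702% and 1.07% of the genes were steadier in these groups. Counting error alone, with each count taken as independent, gives Ide 1.61%, 1.51% and 1.54%. Its spread was 1.16, 1.25 and 1.06 times these values. Both ends of fragments were sequenced, so if the 2 reads of a fragment were counted singly, this error is set too low. At the other end, A2m varied by 44.7%, 39.5% and 25.1%, and 98.8%, 96.9% and 95.6% of genes varied less. Ece1 had 1.56% among CP2-treated mice, where counting error alone gives 1.54%, and Cst3 went from 5.43% in NTG to 23.1% in CP2-treated mice.

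For the 3 genes called in a comparison, the genes with the most similar log2 CPM over the 14 mice were listed as a description. Clu was most like Cd109 (Pearson's r = 0.96), Rhoh (0.96) and Ppp1r18 (0.96), and after removing the group means the values were 0.90, 0.91 and 0.94. Cst3 was most like Tpt1-ps3 (0.94), a pseudogene whose reads may be shared with its parent gene, Gsto2 (0.92) and Npl (0.92). Without the group means these were 0.89, 0.87 and 0.90. Mmp2 was most like Tram2 (0.96), Bicc1 (0.95) and Tep1 (0.94), and without the group means the values were 0.92, 0.88 and 0.87. The points of each correlation share their libraries and depth.

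The other genes of these routes were taken from 5 lists with 48 genes. The lists were chosen with earlier results of these data known, so their shares of called genes are no test of these routes. In APP/PS1 against NTG mice 9 of 38 tested were higher and 0 lower with an adjusted p under 0.05 (18 at an unadjusted p under 0.05, 2 of them lower), where 5.68% of all genes tested passed the adjusted and 18.7% the unadjusted threshold. Likewise, in APP/PS1+CP2 against NTG mice 10 of 38 were higher and 2 lower, beside 6.02% of all genes called. A gene below 1 CPM in all NTG mice was tested only if every mouse of the other group was above 1 CPM. Such a gene could be called higher but not lower. In APP/PS1+CP2 against APP/PS1 mice 0 of 39 were called by edgeR, by DESeq2 or by limma-voom, where 1, 23 and 1 of all genes tested were. At an unadjusted p under 0.05 the last comparison had 6 genes, all lower, where 6.55% of all genes tested had such a p. It shares its APP/PS1 mice with the first comparison, so values high by chance in these mice enter both with opposite signs. The median log2 fold change of the lists together was 0.15, 0.13 and -0.067 in these 3 comparisons.

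Among 12 other amyloid-beta-degrading peptidases, 3 of 10 tested were higher in APP/PS1 than in NTG mice, where 4.34% of all genes tested were. Ctsd, the lysosomal aspartic protease cathepsin D, was at 359 to 388 CPM in NTG, 792 to 1364 CPM in APP/PS1 and 701 to 1167 CPM in CP2-treated mice. The groups of transgenic mice lay wholly above NTG mice, with a log2 fold change of 1.53 (SE 0.14, edgeR adjusted p = 0.000242) without CP2 and 1.27 with it. Ctsb, the cysteine protease cathepsin B and a target of cystatin C, rose by 0.48 (SE 0.06, edgeR adjusted p = 0.00161), and Plau, urokinase, which like Plat activates plasminogen, rose by 1.13 (SE 0.12, edgeR adjusted p = 0.000649). Htra1, a secreted serine protease, was at 114 to 128 CPM in NTG and 79.6 to 89.4 CPM in CP2-treated mice, where it was lower by 0.48 (log2 fold change -0.48, edgeR adjusted p = 0.000352). Against APP/PS1 mice Htra1 had a log2 fold change of -0.32 (edgeR adjusted p = 0.744) and no overlap.

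Of the protease inhibitors of the plasmin and metalloprotease systems 2 of 8 tested were higher in APP/PS1 than in NTG mice, and in CP2-treated mice 3 of 9 were higher and 1 lower, while Plat was not called. Of all genes tested 5.68% and 6.02% were called in these comparisons. Serpinf2, alpha-2-antiplasmin, the main inhibitor of plasmin, was at 0.329 to 0.543 CPM in NTG and 1.36 to 2.26 CPM in CP2-treated mice, where it was higher with a log2 fold change of 1.998 (edgeR adjusted p = 0.000526). Against NTG mice it passed the filter only through the CP2-treated mice. In APP/PS1 mice it ranged from 0.449 to 4.22 CPM and did not pass the filter against NTG mice. Serpina3n, an acute-phase inhibitor of serine proteases that is also among the reactive astrocyte markers, rose by 2.17 (SE 0.34, edgeR adjusted p = 0.00408). Plaur, the urokinase receptor, rose by 1.81 (SE 0.15, edgeR adjusted p = 0.000174), the 1 of 4 plasminogen receptors called. It was at 0.342 to 0.488 CPM in NTG mice and passed the filter in that comparison only through the APP/PS1 mice, at 1.25 to 1.63 CPM. Of the inhibitors of metalloproteases, Timp4 was lower in CP2-treated than in NTG mice (log2 fold change -0.63, edgeR adjusted p = 0.0189), and Timp2, known as an inhibitor and cofactor of gelatinase A, had 0.18 there (edgeR adjusted p = 0.112).

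Of the other carriers 1 of 3 tested was called in APP/PS1 against NTG mice, and of the transport receptors 2 of 13, with 3 of 12 in CP2-treated mice. The shares of all genes tested that were called were 5.68% and 6.02% there. Apoe, the main lipid carrier of the brain and a ligand of LRP1, rose in APP/PS1 mice by 0.49 (SE 0.12, edgeR adjusted p = 0.0394), from 1576 to 1848 CPM in NTG to 1889 to 2882 CPM. The call was lost in 6 of 9 fits with a mouse left out, all but those without mouse 7, 16 or 19, where the edgeR adjusted p reached 0.112, and with the ribosomal RNA covariate (0.0660). Abca1, the transporter that loads lipid onto ApoE, rose by 0.51 (SE 0.11, edgeR adjusted p = 0.0202, and 0.0553 and 0.0758 without NTG mouse 8 or 9), and Msr1, a scavenger receptor of phagocytes, rose by 2.52 (SE 0.39, edgeR adjusted p = 0.00408), from 0.228 to 0.557 CPM in NTG to 1.21 to 3.45 CPM in APP/PS1 mice. Msr1 passed the filter there only through the APP/PS1 mice, and did not pass it in the comparison of CP2-treated with NTG mice. Aqp4, the water channel of astrocyte endfeet and one of the astrocyte markers, was higher in CP2-treated than in NTG mice, at a log2 fold change of 0.50 (edgeR adjusted p = 0.0289). Without CP2 its value of 0.52 missed the threshold (edgeR adjusted p = 0.339), and between the groups with and without CP2 it was -0.016 (edgeR adjusted p = 0.987). Of the 10 astrocyte markers Aqp4 was the 1 higher in CP2-treated than in NTG mice, and 2 were lower. Their median log2 fold change was -0.12, and their sum was 4679 to 5140 CPM, against 5445 to 5882 CPM in NTG mice. The Aqp4 call was lost without NTG mouse 8, 9 or 10 or CP2-treated mouse 21 or 22 (edgeR adjusted p up to 0.0911) with all 3 groups in one fit (0.288) and with the ribosomal RNA covariate. Sorl1, Picalm and Lrpap1, a sorting receptor, an adaptor of endocytosis and a chaperone of LRP1, were not called in any comparison.

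**Figure D5:**
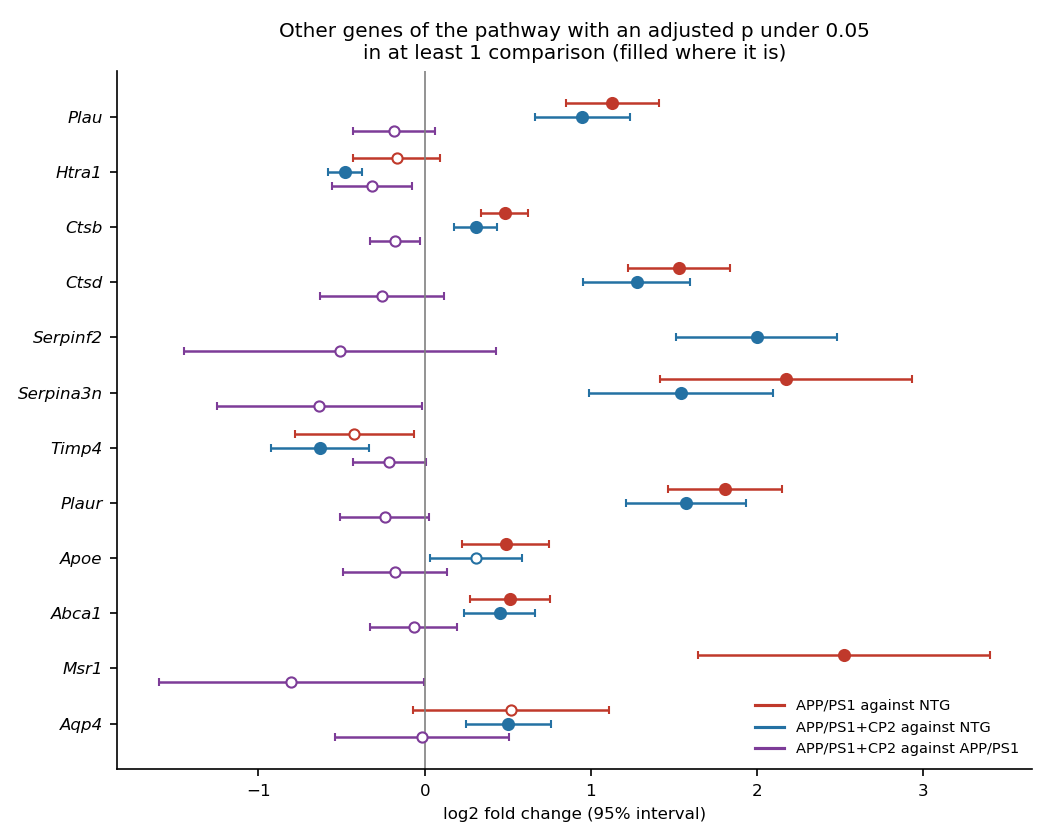
Log2 fold changes with 95% intervals of 12 other genes of these routes that had an edgeR adjusted p under 0.05 in at least 1 comparison (filled where it was). Differences from NTG mice lie above 0 except for Htra1 and Timp4, reach 2.52 for Msr1, and all values of APP/PS1+CP2 against APP/PS1 mice lie below 0 with open points. That comparison shares its APP/PS1 mice with the first, so genes plotted because they were high in these mice tend to lie below 0 by selection.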

How the data were processed

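Per the labels and the study's methods, the authors made TruSeq RNA libraries with a kit that does not mark strand, sequenced both ends, mapped the reads to mm10 with TopHat2 and assigned them to Ensembl genes with FeatureCounts, where a read could count for several overlapping genes. They deposited raw read counts and RPKM values. The aligner's version and the strand setting are not given in the sources used here.

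RPKM served only to order levels per length. Counts of the 2 groups compared were tested with edgeR 4.0.16 in R 4.3.3 (TMM factors, two-sided quasi-likelihood test, Benjamini-Hochberg adjustment), where the study used DESeq2, after a filter of robust CPM above 1 in every mouse of at least 1 group. SEs are those implied by the F statistic, and intervals are 95% intervals. As nothing but the mouse numbers separates the samples of a group, each p-value sets a group difference against the spread between mice within groups. In the main tests these were the mice of the 2 groups compared. The alternatives were DESeq2 1.42.0, limma-voom with quality weights (limma 3.58.1), RLE and upper-quartile factors, no filter, a minimum of 10 counts in each mouse, a joint fit of the 3 groups, a covariate for ribosomal RNA-like genes, and the omission of single mice. The procedure was tested on simulated data. Python 3.11.15 was used for summaries.

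Genes named are the 10, genes of the 5 lists with an adjusted p under 0.05, up to 3 others per list with the highest mean CPM, and the 3 genes most correlated with each of the 10 that was called. A few genes named by this rule are not reported here, though they remain in the counts of the lists. The 10 genes, the lists and the markers were chosen with earlier results of these data known. The gene models of mm10 in the table have the same start and end as those of GENCODE vM21 for 5 of the 10.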

Additional observations from a re-analysis of the deposited data

Results flagged for a closer look

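In groups of 4 or 5 mice, a mouse was listed when its gap to the nearest other mouse took more of the group's range than Dixon's 95% critical value allows. This held for 11 of 156 groups examined, among them 2 of the 30 groups of the 10 genes, where chance alone lists about 1 in 20. APP/PS1 mouse 16 accounted for 4 of the 11. It was the highest for Mme at 39.0 CPM, with 16.99 CPM as the next value, and the lowest for A2m at 7.03 CPM, with 24.5 CPM as the next. It was also the lowest for Pzp at 0.219 CPM and the highest for the summed striatum markers at 2695 CPM.

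APP/PS1 mouse 17 was the highest for Pitrm1, a mitochondrial peptidase, at 41.2 CPM. NTG mouse 10 was the highest for Serpine2, an inhibitor of plasminogen activators, at 195.8 CPM and for Pzp at 1.04 CPM, and the lowest for Sorl1 at 354 CPM. NTG mouse 7 was the highest of its group in summed markers of reactive astrocytes at 739 CPM, of plaque-associated microglia at 197 CPM and of oligodendrocytes at 7698 CPM. That mouse also had the highest A2m of the NTG group, at 21.9998 CPM.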

How the results depend on the processing

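No paired analysis was possible because the groups share no replicate numbers. With 4 or 5 mice a group the intervals of A2m, Mme, Plat and Ece2 are wide. At this depth the spread of Ide, and of Ece1 in CP2-treated mice, is near the counting error computed for independent counts. Of 520 values of the 10 genes under other settings, 469 kept direction and side of the threshold, 18 lost a call, 7 gained one and 26 changed sign, all in differences that were not called; of 357 values of called pathway genes 336 kept both and 21 lost the call. Leaving out 1 mouse gave 0 (without NTG mouse 7 or 9) to 4 (without mouse 16: Clu, Cst3, Mmp2 and A2m) of the 10 genes called in APP/PS1 against NTG mice, and 0 to 1 in APP/PS1+CP2 against NTG mice. In the latter DESeq2 and limma-voom each called 2 and the ribosomal covariate 0. Of the pathway genes, 7 to 16 were called in APP/PS1 against NTG mice with a mouse left out and 14 with limma-voom. All genes called numbered 1667 with DESeq2 and 1563 with limma-voom in APP/PS1 against NTG mice (578 to 1474 with a mouse left out), 23 with DESeq2, 2 with the covariate and 0 with all groups in one fit in APP/PS1+CP2 against APP/PS1 mice (0 to 1), and 1670 with DESeq2 in APP/PS1+CP2 against NTG mice (572 to 1123). Sign changes in APP/PS1 against NTG mice were those of Ece2, at 0.0057 with upper-quartile factors, 0.036 with limma-voom and 0.080 with the covariate, and with a mouse left out Ece2 ranged from -0.075 to 0.048, Ece1 from -0.013 to 0.053 and Plat from -0.010 to 0.13. In APP/PS1+CP2 against APP/PS1 mice the covariate gave 0.0027 for Ide, 0.029 for Mme and -0.025 for Ece1, all groups in one fit gave 0.00095 for Ide, and with a mouse left out Ide ranged from -0.012 to 0.0098, Ece1 from -0.028 to 0.041 and Mmp2 from -0.051 to 0.13. In APP/PS1+CP2 against NTG mice Plat ranged from -0.11 to 0.014. The cause of these changes was not tested.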
